A study of Danio rerio with 9 samples.

Results

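Collagen genes were examined in 9 single-cell transcriptome libraries made from sorted cells of the zebrafish. They were taken as the genes whose symbol in the deposited gene lists begins with col, a number, a and a number. The pattern matched 57 gene identifiers. For 2 of them, col4a3bpa and col4a3bpb, the symbol refers to a protein that binds type IV collagen, and the genes are known as ceramide transfer genes, so they were set apart. The other 55 were collagens, of which 54 were listed at every age among 24201 shared genes, and col27a1a was listed at 2.5 dpf only. Genes were matched by identifier, since the 2.5 dpf lists give some of them another symbol. For 3 of them that symbol does not match the pattern, and col18a1a is listed there as col18a1. The symbols col6a3 and col19a1 each stood for 2 identifiers. The 55 fell into 9 fibrillar, 13 cartilage, 6 basement membrane, 5 basement membrane zone, 5 microfibrillar, 8 fibril-associated (FACIT), 2 transmembrane and 7 other collagens.

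Collagens are proteins of the extracellular matrix built from 3 intertwined chains, each chain from its own gene. Fibrillar collagens such as type I give skin, bone and tendon their tensile strength, type II with types IX, X, XI and XXVII makes up the matrix of cartilage, and type IV forms the sheet of every basement membrane. Skin cells of the early zebrafish embryo are known to make type I collagen before dermal fibroblasts do, whereas blood cells are not known as a main source of collagen. Endothelial cells, from which blood stem cells arise, make the type IV chains of col4a1 and col4a2.

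The cells carried a transgene in which the cd41 promoter drives green fluorescent protein (cd41:GFP), and those with a low signal were collected by flow cytometry. This gate is used for blood stem and progenitor cells, with brighter cells being thrombocytes. All animals were of the EK strain and carried tg(cd41:GFP). The mutants were runx1-/- with the del8 (hg96) allele, a deletion in the transcription factor gene runx1, and the wild types (WT) had the transgene alone. The runx1-/- libraries came from 2.5, 6 and 10 days post fertilization (dpf), 1 each, and from 16 dpf, where 1 is labelled bloodless and 1 recovered. The WT libraries came from 2.5, 6, 10 and 16 dpf, 1 each. The labels give neither the number of animals in a library nor the meaning of bloodless and recovered. With 1 library per group, no difference within an age has a replicate check, and intervals below are exact 95% intervals that cover counting error only.

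After filtering, 28875 cells and 352032937 unique molecular identifiers (UMIs, which count captured transcript molecules) remained. Libraries ranged from 762 cells and 5113103 UMIs (runx1-/- at 6 dpf) to 7185 cells and 85795962 UMIs (recovered), with median depths of 4293 to 13403 UMIs per cell. Levels are given in CPM, the UMIs of a gene per 1000000 UMIs of the library or class named. UMIs of runx1 itself were present in all 5 runx1-/- libraries (0.25 to 9.78 CPM) and all 4 WT libraries (0.0366 to 1.95 CPM), and a 3' tag does not show whether a transcript carried the deletion. The 6 dpf libraries shared 22 cell barcodes, with a median of 32790 UMIs in runx1-/- and 727 in WT; other pairs of libraries shared at most 12. Cells were clustered within each age with all collagen genes left out, and a cluster was called after a cell type (epidermis-like) only from marker genes that are not collagens. Clusters scoring highest for a blood type made up 27.8% of the runx1-/- library and 69.0% of the WT library of 2.5 dpf, 53.3% and 88.9% of those of 6 dpf, and 96.3% and 97.5% of those of 10 dpf. For 16 dpf the figures were 70.1% (bloodless), 89.1% (recovered) and 89.8% (WT). A sizeable part of the sort at 2.5 and 6 dpf, and more of it in runx1-/-, was therefore not assigned to blood.

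Collagen transcripts were most abundant at 2.5 dpf and, at each age, higher in sum in runx1-/- than in WT. All collagens together reached 7318 CPM in runx1-/- and 2781 CPM in WT at 2.5 dpf, and 1991 and 278 CPM at 6 dpf. They reached 87.8 CPM in runx1-/- and 33.0 CPM in WT at 10 dpf. At 16 dpf the sum was 158 CPM in the bloodless, 76.3 CPM in the recovered and 56.7 CPM in the WT library. Since these are sums over mixed cells, fewer cells of a type and less RNA per cell cannot be told apart in them. Of the 55 members listed at 2.5 dpf, 6 had no UMI in runx1-/- and 6 had none in WT. Of the 54 listed later, those without a UMI numbered 11 in runx1-/- and 15 in WT at 6 dpf, 10 and 15 at 10 dpf, and 2 in bloodless, 2 in recovered and 5 in WT at 16 dpf.

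**Figure D1:**
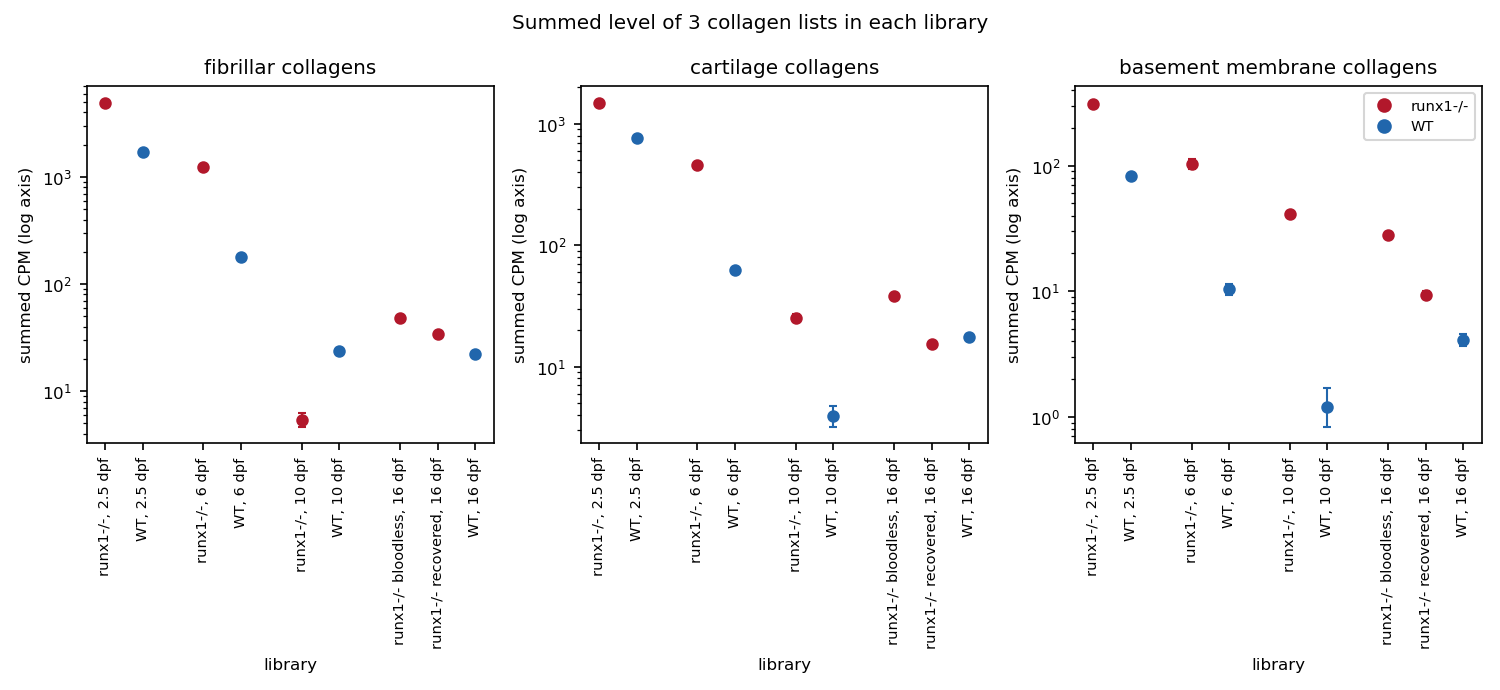
Summed CPM (log axes) of the fibrillar, cartilage and basement membrane collagens in each of the 9 libraries, with exact Poisson 95% intervals that are mostly smaller than the points; each point is 1 library. The runx1-/- library lies above the WT library of its age in all panels except for fibrillar collagens at 10 dpf and cartilage collagens in the recovered library.

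The lists did not move alike. Fibrillar collagens were at 4940 CPM in runx1-/- and 1726 CPM in WT at 2.5 dpf, 1240 and 180 CPM at 6 dpf, and 5.43 and 23.6 CPM at 10 dpf; at 16 dpf they were at 48.4 CPM in bloodless, 34.0 CPM in recovered and 22.3 CPM in WT. At 10 dpf runx1-/- was thus the lower library, with a log2 ratio to WT of -2.12 (-2.37 to -1.88), against 1.52, 2.78, 1.12 and 0.61 at 2.5 dpf, 6 dpf and in the bloodless and recovered libraries. A large part of the 10 dpf sum was the single gene col5a3a, described below. Over every deposited barcode it had 329 of the 684 fibrillar UMIs in WT and 55 of the 192 in runx1-/-. The type I gene col1a2 was lower in runx1-/- at that age as well, with 28 UMIs against 140 in WT. Cartilage collagens were at 1482 CPM in runx1-/- and 766 CPM in WT at 2.5 dpf, 460 and 62.2 CPM at 6 dpf, 25.2 and 3.90 CPM at 10 dpf, and at 16 dpf at 37.9 CPM in bloodless, 15.2 CPM in recovered and 17.7 CPM in WT. Only the recovered library lay under its WT library for this list, with a log2 ratio of -0.22 (-0.33 to -0.11). Basement membrane collagens were at 309 CPM in runx1-/- and 82.5 CPM in WT at 2.5 dpf, 103 and 10.3 CPM at 6 dpf, and 41.1 and 1.21 CPM at 10 dpf. At 16 dpf they were at 27.9 CPM in bloodless, 9.35 CPM in recovered and 4.09 CPM in WT. This list was higher in runx1-/- in 5 of 5 libraries, with log2 ratios of 1.91, 3.32, 5.09, 2.77 and 1.19.

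At 2.5 dpf epidermis-like cells held most of the collagen that was counted. They were 607 of the cells of both libraries (18.3%) and held 94.3% of fibrillar, 89.8% of basement membrane, 93.1% of basement membrane zone, 81.6% of FACIT and 94.2% of transmembrane collagen UMIs. Over both libraries together, cartilage collagens were divided, with 58.0% of UMIs in epidermis-like cells and 32.5% in cartilage-like cells, which were 7.31% of cells. Cartilage-like cells were 105 in runx1-/- and 138 in WT. The pooled share does not describe each library, since levels within these cells differed between genotypes, as given below. Of the microfibrillar collagens, the type VI chains, 79.4% of UMIs lay in fibroblast-like cells, which were 7.49% of cells. This list was small, with 75 UMIs in runx1-/- and 70 in WT over every deposited barcode. Fibroblast-like cells held only 2.84% of fibrillar UMIs, a share that followed the definition of the class. Taken by UMIs of 2 or more markers without clustering, fibroblast cells (25.4% of cells) held 95.6% of fibrillar UMIs. Epidermis cells by that rule (86.55% of cells) held 99.2%. Cells called like hematopoietic stem and progenitor cells (HSPC-like) were 32.9% of cells and contributed little to any list. Nearly all of them were WT: 1087 cells (50.3%) in WT and 5 cells (0.43%) in runx1-/-.

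**Figure D2:**
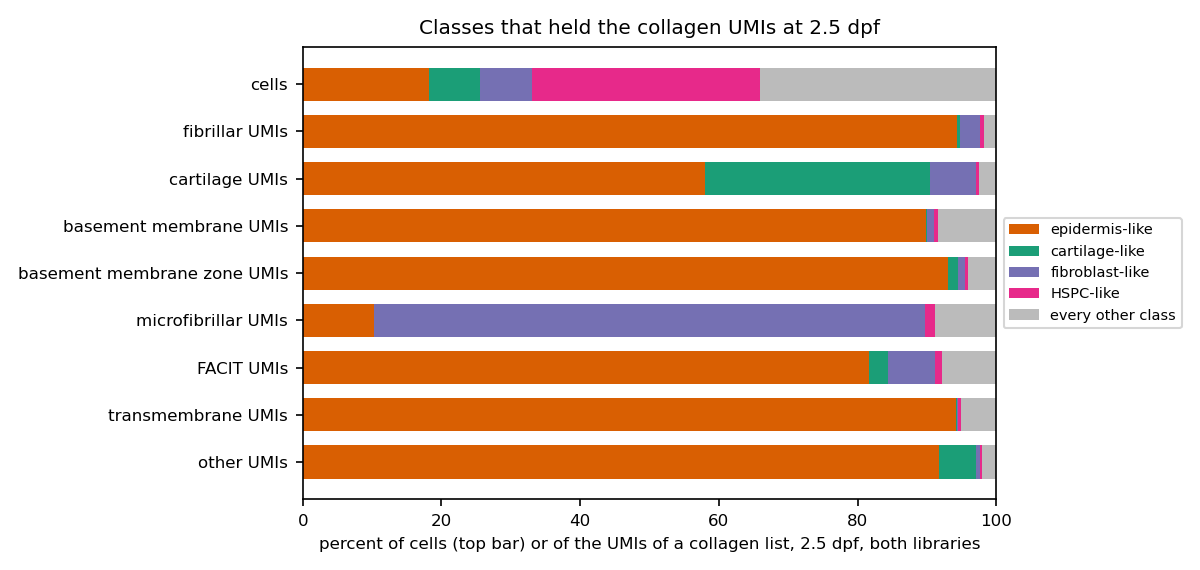
Percent of cells (top bar) and of the UMIs of each collagen list held by each cell class at 2.5 dpf, over both libraries. Epidermis-like cells, 18.3% of cells, hold 94.3% of fibrillar UMIs, whereas fibroblast-like cells hold 79.4% of microfibrillar UMIs and cartilage-like cells 32.5% of cartilage UMIs.

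Type I collagen, whose chains are encoded by col1a1a, col1a1b and col1a2, led the fibrillar list. The level of col1a2 came to 1940 CPM in runx1-/- and 708 CPM in WT at 2.5 dpf, 574 and 79.9 CPM at 6 dpf, and 0.840 and 4.97 CPM at 10 dpf; at 16 dpf it was 18.2 CPM in bloodless, 12.3 CPM in recovered and 6.13 CPM in WT. The other chains moved with it. For col1a1a the levels were 1300 CPM in runx1-/- and 452 CPM in WT at 2.5 dpf and 222 and 28.6 CPM at 6 dpf, and for col1a1b they were 1533 and 499 CPM, then 377 and 43.9 CPM. Of the UMIs of the 3 chains together, col1a2 made up 40.6% in runx1-/- and 42.7% in WT at 2.5 dpf, 49.0% and 52.4% at 6 dpf, and 47.5% in bloodless, 41.7% in recovered and 46.4% in WT at 16 dpf. At 10 dpf its share was 27.7% in runx1-/-, where the 3 chains had 41, 32 and 28 UMIs, and 43.6% in WT.

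Within epidermis-like cells the genotypes lay much closer together than in the whole libraries. The fibrillar list reached 13190 CPM in the 358 epidermis-like cells of runx1-/- and 11910 CPM in the 249 of WT at 2.5 dpf, and 5724 CPM in 174 cells and 5925 CPM in 171 cells at 6 dpf. For col1a2 alone the levels were 5220 CPM in runx1-/- and 4955 CPM in WT at 2.5 dpf, and 2682 and 2992 CPM at 6 dpf. Epidermis-like cells were 30.8% of runx1-/- and 11.5% of WT cells at 2.5 dpf and 22.8% and 6.41% at 6 dpf. The summed level of the 10 epidermis markers followed the same order, at 44630 CPM in runx1-/- and 17760 CPM in WT at 2.5 dpf, 18910 and 2406 CPM at 6 dpf, and 60.5 and 719 CPM at 10 dpf, the age at which fibrillar collagens were lower in runx1-/-. At 16 dpf the marker sum was 616 CPM in bloodless, 169 CPM in recovered and 1606 CPM in WT, an order that the fibrillar list did not follow. How far the number of epidermis-like cells in the sort sets the fibrillar difference was not tested.

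Some fibrillar UMIs were also counted in blood classes that are not expected to make collagen. With each cell thinned to 2000 UMIs, a fibrillar UMI was found in 16.4% of macrophage-like cells in runx1-/- (72 cells, median 11860 UMIs) and 6.07% in WT (42 cells, 12650 UMIs) at 2.5 dpf, against 97.6% and 94.5% of epidermis-like cells (10540 and 14520 UMIs). Unthinned, macrophage-like cells held the list at 92.2 CPM (runx1-/-) and 28.0 CPM (WT). In HSPC-like cells of WT the thinned share was 7.46%, close to that of WT macrophage-like cells. Whether the fibrillar UMIs of blood classes are background was not tested. Over all blood clusters of 2.5 dpf the fibrillar level came to 86.2 CPM in runx1-/- and 35.6 CPM in WT, against 8046 and 7058 CPM in the other clusters.

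Cartilage collagens had more than 1 source. The type II gene col2a1a, the main fibril chain of cartilage, was at 135 CPM in runx1-/- and 120 CPM in WT at 2.5 dpf. In cartilage-like cells, which carried matn1, ucmab and epyc, it reached 2016 CPM in runx1-/- (105 cells) and 3927 CPM in WT (138 cells), but in epidermis-like cells only 52.6 and 11 CPM. Its paralog col2a1b was at 357 CPM in runx1-/- and 123 CPM in WT at 2.5 dpf and at 111 and 13.8 CPM at 6 dpf, and epidermis-like cells held it at 900 CPM in runx1-/- and 769 CPM in WT at 2.5 dpf. The type XI gene col11a1a, which helps to set fibril width, followed col2a1b, with 773 CPM in runx1-/- and 301 CPM in WT at 2.5 dpf and 1947 and 1824 CPM in epidermis-like cells. The 2 type II paralogs were thus counted mainly in different classes.

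Within cartilage-like cells the collagens were lower in the runx1-/- library. The cartilage list stood at 6641 CPM in runx1-/- and 12840 CPM in WT at 2.5 dpf, with 98.9% and 99.8% of the thinned cells having a UMI of it. The type IX chain genes, whose products decorate type II fibrils, showed the same order, with col9a3 at 1062 CPM in runx1-/- and 2188 CPM in WT and col9a1a at 814 and 1447 CPM. The fibrillar list in the same cells was at 444 CPM in runx1-/- and 447 CPM in WT. Each value rests on 1 library and has no test.

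After 2.5 dpf the carriers of fibrillar and cartilage collagens differed by age. At 6 dpf epidermis-like cells held 92.1% of fibrillar, 95.2% of cartilage and 77.4% of basement membrane UMIs. At 10 dpf a cluster of 57 cells held 51.7% of fibrillar and 93.8% of cartilage UMIs; the heart muscle genes myl7, cmlc1 and tnnt2a and the epidermal keratins krt91 and krt5 were all among its leading genes, so it is given no cell type name. Its fibrillar level was 243 CPM in 42 runx1-/- cells and 3057 CPM in 15 WT cells, and its cartilage level was 1764 and 920 CPM. At 16 dpf a cluster of 45 epidermis-like cells held 38.8% of fibrillar UMIs, at 6294 CPM in bloodless (21 cells), 14920 CPM in recovered (18 cells) and 6726 CPM in WT (6 cells). A skeletal muscle-like cluster of 218 cells held 32.1% of cartilage and 39.0% of microfibrillar UMIs of that age.

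Several late values rested on very few cells. The type X gene col10a1b, whose paralogs mark hypertrophic cartilage and bone-forming cells in vertebrates, had 105 UMIs in runx1-/- at 10 dpf and 0 in WT, and all 105 came from 1 cell. The other type X gene, col10a1a, had 180 UMIs in 4 bloodless cells, 182 UMIs in 4 recovered cells and 231 UMIs in 15 WT cells at 16 dpf. Of these UMIs 95.1% lay in the skeletal muscle-like cluster, at 600 CPM in bloodless, 352 CPM in recovered and 462 CPM in WT, and the 177 bloodless UMIs of that cluster came from 1 of its 58 cells. The 261 UMIs of col2a1a in runx1-/- at 10 dpf came from 6 cells, and the 11 in WT from 1 cell. At 16 dpf col2a1a was highest in a cluster of 51 cells led by the otolith genes stm and otomp, at 760 CPM. The cartilage list as a whole had a UMI in 45 runx1-/- and 18 WT cells at 10 dpf, and in 492 bloodless, 322 recovered and 260 WT cells at 16 dpf.

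Type IV collagen is encoded by 3 pairs of genes, and the pairs differed in the cells with their highest levels, although the cells overlapped. In RefSeq's GRCz12tu annotation, which is not the build of the files and was used for neighbourhood only, col4a1 lies next to col4a2, col4a3 next to col4a4, and col4a5 next to col4a6. These are 3 of the 4 neighbouring pairs among the 53 collagen symbols, all of which matched that annotation; the fourth is col9a2 with col16a1. The pair col4a5 and col4a6 was an epidermis pair: col4a5 was at 150 CPM in runx1-/- and 30.7 CPM in WT at 2.5 dpf and 48.7 and 6.50 CPM at 6 dpf, and col4a6 at 144 and 47.4 CPM, then 25.8 and 3.16 CPM. In epidermis-like cells col4a5 stood at 394 CPM in runx1-/- and 214 CPM in WT at 2.5 dpf and 222 and 241 CPM at 6 dpf, and col4a6 at 369 and 323 CPM, then 106 and 115 CPM.

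The pair col4a3 and col4a4 was sparse. Its genes had 41 and 61 UMIs in runx1-/- and 24 and 41 in WT at 2.5 dpf, and at most 5 UMIs in any library of 6 or 10 dpf. At 2.5 dpf both were highest in a cluster of 11 cells led by lens crystallin genes, at 125 and 112 CPM, where col4a5 and col4a6 were higher still, at 202 and 198 CPM. At 16 dpf col4a3 had 98 UMIs in bloodless, 50 in recovered and 60 in WT, and col4a4 had 140, 85 and 48. Of these, 74.0% for col4a3 and 66.3% for col4a4 lay in a cluster of 847 cells led by the digestive enzyme gene prss1 and the germ-cell genes ddx4 and piwil1. In that cluster the pair stood at 9.50 and 11.2 CPM, beside 8.82 CPM for col4a5 and 4.81 CPM for col4a6.

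**Figure D3:**
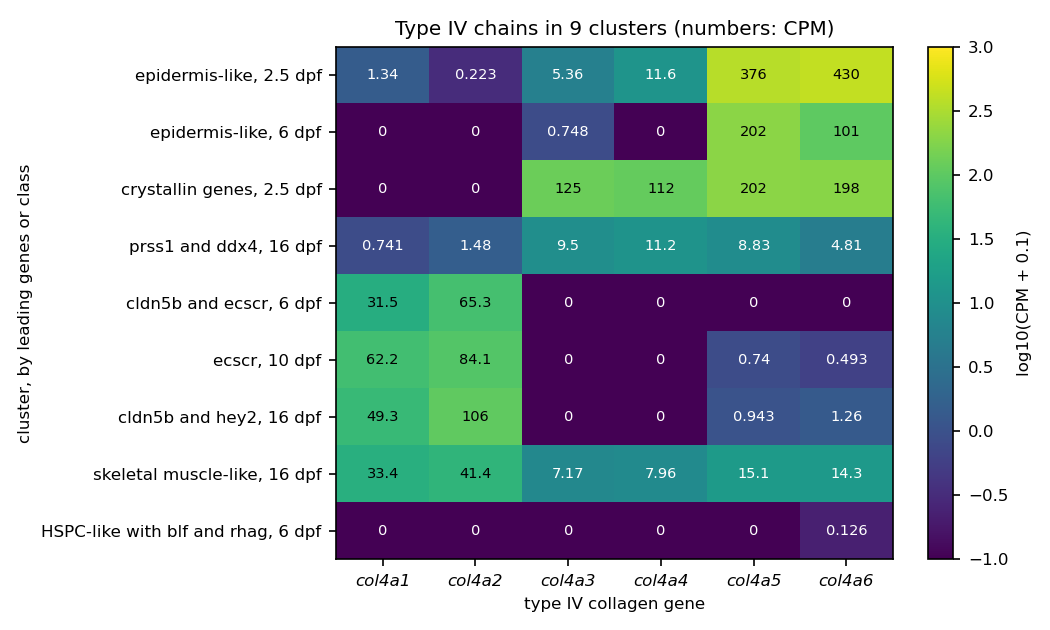
CPM of the 6 type IV genes (columns) in 9 clusters (rows, named by class or leading genes, all libraries of the age together); colour is log10(CPM + 0.1) and the numbers are CPM. The genes col4a5 and col4a6 are seen in epidermis-like and crystallin clusters (202 and 198 CPM in the crystallin cluster), col4a3 and col4a4 in the crystallin cluster at 125 and 112 CPM, and col4a1 and col4a2 in clusters with cldn5b or ecscr; the skeletal muscle-like cluster holds all 6.

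The pair col4a1 and col4a2, the chains of basement membranes in most tissues and of blood vessels, was scarce in WT and high in runx1-/- after 2.5 dpf. The level of col4a1 (ENSDARG00000055009) was 5.67 CPM in runx1-/- (68 UMIs) and 1.57 CPM in WT (43 UMIs) at 2.5 dpf, and 9.19 CPM (47 UMIs) and 0.220 CPM (8 UMIs) at 6 dpf. At 10 dpf it was 18.0 CPM in runx1-/- (601 UMIs) and 0.142 CPM in WT (4 UMIs), and at 16 dpf it was 5.75 CPM in bloodless, 1.61 CPM in recovered and 0.344 CPM in WT. All 5 runx1-/- values lay above the WT value of their age, and the lowest of them, 1.61 CPM, above the highest WT value, 1.57 CPM, by little. The log2 ratios were 1.85 (1.28 to 2.44), 5.39 (4.29 to 6.68), 6.99 (5.63 to 8.87), 4.06 (3.49 to 4.69) and 2.22 (1.62 to 2.88).

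For col4a2 (ENSDARG00000104110) the level was 1.17 CPM in runx1-/- (14 UMIs) and 0.439 CPM in WT (12 UMIs) at 2.5 dpf, 19.2 and 0.384 CPM at 6 dpf, and 21.6 and 0.248 CPM at 10 dpf. At 16 dpf it was 11.4 CPM in bloodless, 4.38 CPM in recovered and 0.663 CPM in WT. Every runx1-/- value exceeded every WT value. The log2 ratios were 1.41 (0.19 to 2.66), 5.64 (4.83 to 6.56), 6.44 (5.39 to 7.76), 4.1 (3.69 to 4.54) and 2.73 (2.3 to 3.17). The balance of the pair differed between 2.5 dpf and the later libraries in both genotypes: col4a1 made up 82.9% of its UMIs in runx1-/- and 78.2% in WT at 2.5 dpf, but 32.4% and 36.4% at 6 dpf, 45.5% and 36.4% at 10 dpf, and 33.6% in bloodless, 26.9% in recovered and 34.2% in WT at 16 dpf. The WT shares had wide intervals at 6 dpf (17.2% to 59.3%) and 10 dpf (10.9% to 69.2%). Gene list and barcode filter also differed between 2.5 dpf and later, and cannot be told apart from age.

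**Figure D4:**
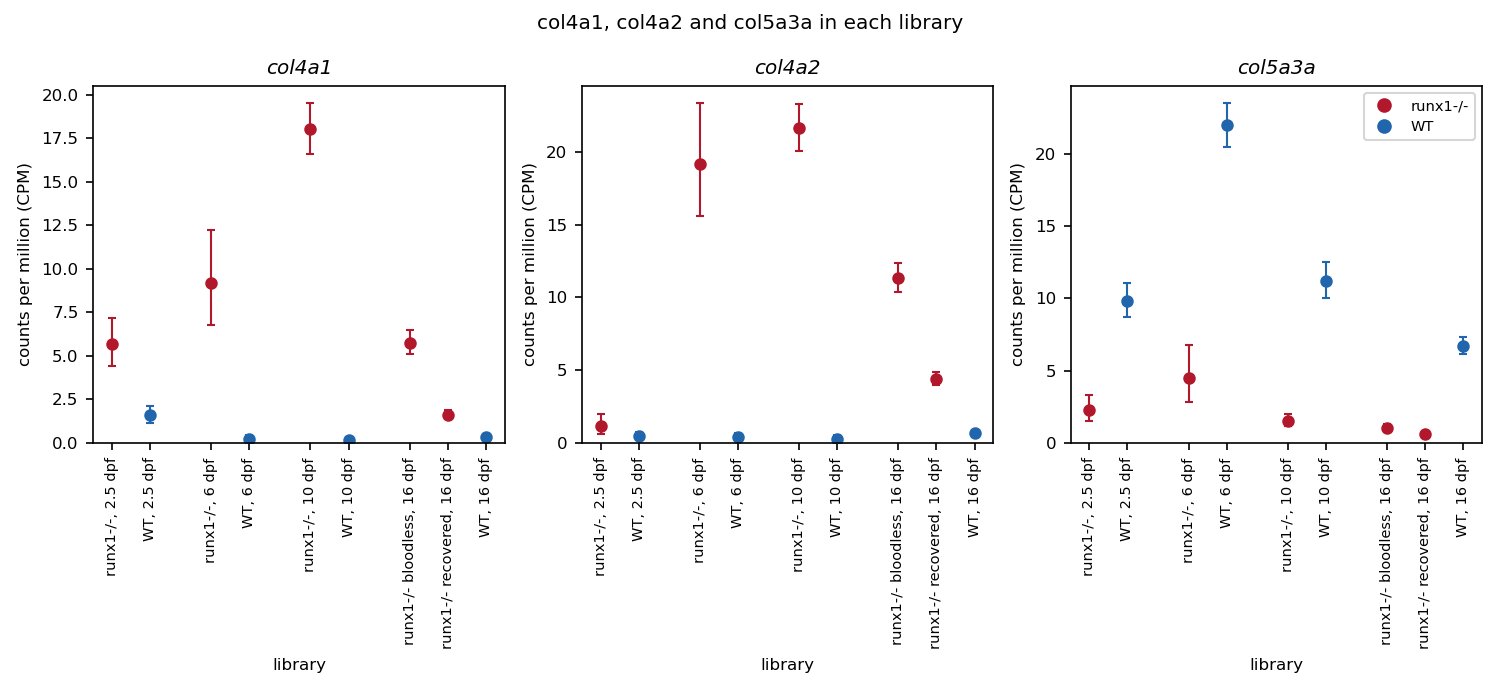
CPM of col4a1, col4a2 and col5a3a in each of the 9 libraries (linear axes from 0) with exact Poisson 95% intervals; each point is 1 library. The type IV genes are highest in runx1-/- at 10 dpf, at 18.0 and 21.6 CPM, and near 0 in WT after 2.5 dpf, whereas col5a3a is higher in WT at every age.

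Most col4a1 and col4a2 UMIs of runx1-/- at 6 and 16 dpf lay in clusters with endothelial genes that had almost no WT cells. Such clusters also carried the pair at 10 dpf, as did HSPC-like clusters described below. At 6 dpf a cluster of 225 runx1-/- cells and 1 WT cell, led by the junction gene cldn5b and by sox7 and ecscr, held 84.8% of the pair's runx1-/- UMIs, at 97.5 CPM, with a UMI of the pair in 30.2% of its cells (15.6% when thinned to 2000 UMIs). At 10 dpf a cluster of 502 runx1-/- cells with ecscr and podxl among its leading genes held the pair at 146 CPM and in 51.4% of cells (22.7% thinned), and a cluster of 622 runx1-/- cells led by CABZ01030107.1 and sele at 108 CPM and in 36.2%. Neither held a WT cell. At 16 dpf a cluster led by CABZ01030107.1, cldn5b, hey2 and ecscr, with 637 bloodless, 795 recovered and 5 WT cells, held it at 173 CPM in bloodless and 134 CPM in recovered, which was 78.9% and 73.4% of the UMIs of those libraries.

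No cluster at any age could be named endothelial-like, so these clusters are called by their leading genes. In the runx1-/- cells of the 6 dpf cluster all 10 endothelial markers had a UMI and summed to 474 CPM; in the pair of 10 dpf clusters the sums were 267 and 393 CPM, and in the 16 dpf cluster 224 CPM in bloodless and 240 CPM in recovered cells. The vascular receptor gene kdrl was only at 0.356 to 6.62 CPM in them, and genes of blood stem cells were present as well: myb stood at 140 to 197 CPM, gata2b at 115 to 237 CPM and lmo2 at 358 to 618 CPM. Over whole libraries the endothelial marker sum came to 18.4 CPM in runx1-/- and 5.08 CPM in WT at 2.5 dpf, 125 and 2.03 CPM at 6 dpf, 103 and 6.88 CPM at 10 dpf, and 28.3 CPM in bloodless, 10.8 CPM in recovered and 6.93 CPM in WT at 16 dpf. None of the 10 markers was at 0 in any runx1-/- library, against 1, 3, 3 and 1 of the 10 in WT at 2.5, 6, 10 and 16 dpf. How far the number of such cells in the sort sets the difference in col4a1 and col4a2 was not tested.

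Counted per cell, col4a1 or col4a2 had a UMI in 52 runx1-/- cells (4.48%) and 45 WT cells (2.08%) of 2.5 dpf, in 84 (11.02%) and 21 (0.787%) of 6 dpf, and in 630 (19.5%) and 11 (0.435%) of 10 dpf. The numbers at 16 dpf were 402 bloodless cells (11.97%), 320 recovered cells (4.45%) and 65 WT cells (1.12%). The carriers of runx1-/- at 10 dpf had an endothelial marker UMI in 74.3% of cells, against 19.3% of the other cells of that library, at median depths of 7999 and 7191 UMIs, and 215 of them had UMIs of both genes. At 2.5 and 6 dpf the share in runx1-/- carriers was 28.9% and 63.1%, against 8.92% and 16.5% of the other cells. In bloodless it was 45.8% against 12.2%, and in recovered 42.8% against 3.98%. The median depths of carriers and other cells were 8622 and 7638 UMIs at 2.5 dpf and 7156 and 3930 UMIs at 6 dpf. At 16 dpf carriers were shallower, at 5413 against 11810 UMIs in bloodless and 4142 against 11270 UMIs in recovered. Erythroid-like cells of the runx1-/- library of 10 dpf, 752 cells with a median depth of 20470 UMIs, had a col4a2 UMI in 0.266%. This share is for col4a2 alone, and the part of free RNA in the counts was not tested.

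Other cells carried the pair too. In skeletal muscle-like cells of 16 dpf it stood at 109 CPM in bloodless (58 cells), 65.7 CPM in recovered (87 cells) and 63.1 CPM in WT (73 cells), with intervals that overlap. At 10 dpf HSPC-like clusters led by rgs4 (187 runx1-/- cells) and ccl19a.1 (110 runx1-/- cells) held it at 104 and 157 CPM. At 2.5 dpf it had no main carrier, and epidermis-like cells, which held the other chains, had 0 col4a2 UMIs in WT and 1 in runx1-/-.

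The type V gene col5a3a (ENSDARG00000098294) went the other way, and in WT its UMIs lay mainly in HSPC-like clusters. Type V chains are minor components that start and thin type I fibrils. The level was 2.25 CPM in runx1-/- (27 UMIs) and 9.84 CPM in WT (269 UMIs) at 2.5 dpf, 4.50 CPM (23 UMIs) and 22.0 CPM (800 UMIs) at 6 dpf, and 1.53 CPM (51 UMIs) and 11.2 CPM (316 UMIs) at 10 dpf. At 16 dpf it was 0.992 CPM in bloodless (45 UMIs), 0.629 CPM in recovered (54 UMIs) and 6.73 CPM in WT (528 UMIs). Every WT value lay above every runx1-/- value. The log2 ratios of runx1-/- to WT were -2.13 (-2.75 to -1.55), -2.29 (-2.95 to -1.69), -2.87 (-3.33 to -2.44), -2.76 (-3.23 to -2.32) and -3.42 (-3.85 to -3.01).

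In WT the gene followed HSPC-like clusters that express blf, rhag and myb. At 6 dpf, 467 WT cells of a cluster led by blf, with rhag and tal1, held 441 of the 800 UMIs, at 56.6 CPM and in 52.5% of cells (10.5% thinned), while macrophage-like cells of the same library, of similar depth (median 18890 UMIs against 17000), had 0 UMIs in 35 cells, which at a limit of 3 counts allows a share of cells with a UMI of up to 8.57%. At 10 dpf 485 WT cells led by rhag and rgcc held it at 29.6 CPM, and at 16 dpf 723 WT cells led by nt5c2l1 and rhag at 21.1 CPM. At 2.5 dpf 421 WT cells led by blf held it at 21.7 CPM. Blood clusters contained 82.0%, 99.6%, 99.5% and 93.6% of the WT carriers at 2.5, 6, 10 and 16 dpf. Of WT cells with a col5a3a UMI, 71.1%, 92.5%, 96.2% and 85.2% also had a UMI of the progenitor gene myb, against 40.9%, 54.8%, 54.7% and 41.7% of the other WT cells, but the carriers were also deeper at every age. Their median depths were 15620, 17980, 15160 and 19020 UMIs, against 11850, 12120, 10330 and 11840 UMIs for the other WT cells, and the part of depth in the myb shares was not tested.

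Cells of runx1-/- were few in those clusters, and levels in the HSPC-like class were lower as well. The 6 dpf cluster held 11 runx1-/- cells with 5 UMIs (35.7 CPM, 11.6 to 83.2) beside the 56.6 CPM of WT. The 10 dpf cluster held 6 runx1-/- cells with 0 UMIs, and the 16 dpf cluster held 82 recovered cells with 1 UMI (1.11 CPM). Over all HSPC-like cells col5a3a was at 15.7 CPM in runx1-/- (60 cells) and 41.2 CPM in WT (844 cells) at 6 dpf, 4.90 CPM (1459 cells) and 27.0 CPM (668 cells) at 10 dpf, and 0.5 CPM in bloodless, 1.54 CPM in recovered and 20.2 CPM in WT at 16 dpf. Different clusters made up that class in the genotypes: in runx1-/- at 10 dpf 43 of the 51 UMIs came from 529 cells led by TCERG1L, a cluster with 2 WT cells. At 2.5 dpf 24 of the 27 runx1-/- UMIs and 41 of the 269 WT UMIs were in epidermis-like cells, at 5.66 CPM and 11 CPM. Only 5 runx1-/- cells were HSPC-like at that age, against 1087 WT cells.

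Across the 9 libraries, genotype was tested in the summed counts with age as a factor (edgeR's quasi-likelihood test, Benjamini-Hochberg adjusted over 18183 genes, threshold 0.05). Of 44 collagens that passed the filter on low counts, 2 were higher and 1 lower in runx1-/-, against 1.37% of all genes tested called in either direction (0.555% higher and 0.819% lower). The higher ones were col4a2, with a log2 fold change of 3.71 (SE 0.68, adjusted p 0.0375), and col4a1, with 3.61 (SE 0.71, adjusted p 0.0461), each higher in 5 of 5 runx1-/- libraries. The lower one was col5a3a, at -3.07 (SE 0.33, adjusted p 0.0076). With DESeq2 on the same counts 13 of the 44 passed, 12 higher and 1 lower, against 8.54% of all genes (5.13% higher and 3.41% lower). In edgeR the other 41 did not pass, although 42 of the 44 estimates were positive, with a median log2 fold change of 1.04 against 0.08 over all genes tested. By list the median was 0.92 for fibrillar, 0.63 for cartilage, 1.30 for basement membrane, 0.86 for basement membrane zone, 1.05 for microfibrillar and 1.5 for FACIT collagens. For the abundant chains the estimates were 0.62 (SE 0.68, adjusted p 0.639) for col1a2, 0.53 (SE 0.63, adjusted p 0.672) for col2a1a and 1.30 (SE 0.40, adjusted p 0.144) for col4a5.

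The call of col5a3a was firmer than those of the type IV pair. It passed in 13 of 14 alternative analyses, failing without the age term (adjusted p 0.139), with log2 fold changes of -3.85 to -2.6. In contrast col4a1 passed in 5 of 14 and col4a2 in 6 of 14, with log2 fold changes that stayed at 2.85 to 5.07 for col4a1 and 3.02 to 5.01 for col4a2. Leaving out 6 dpf, 10 dpf, 16 dpf, the bloodless library or the recovered library each left col5a3a as the only collagen called, while leaving out 2.5 dpf kept all 3. Without the barcodes that the 6 dpf libraries share, col4a1 had an adjusted p of 0.0546 (edgeR), and col4a2 and col5a3a still passed. With the sums restricted to clusters scoring highest for a blood type, an analysis added after the data were seen, 5 of 23 collagens passed, against 5.0% of 14333 genes (2.56% higher and 2.43% lower): col4a2 (5.01, adjusted p 0.0050), col4a1 (5.07, adjusted p 0.0117), col12a1a (3.50, adjusted p 0.0096) and col27a1b (4.64, adjusted p 0.0274) were higher and col5a3a (-3.85, adjusted p 0.0097) lower, by edgeR. These clusters include those with cldn5b, ecscr and other endothelial genes described above, which scored highest for HSPC; blood clusters held 85.7% of the runx1-/- cells with a col4a1 or col4a2 UMI at 6 dpf, 98.1% at 10 dpf, and 87.6% in bloodless and 88.75% in recovered.

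**Figure D5:**
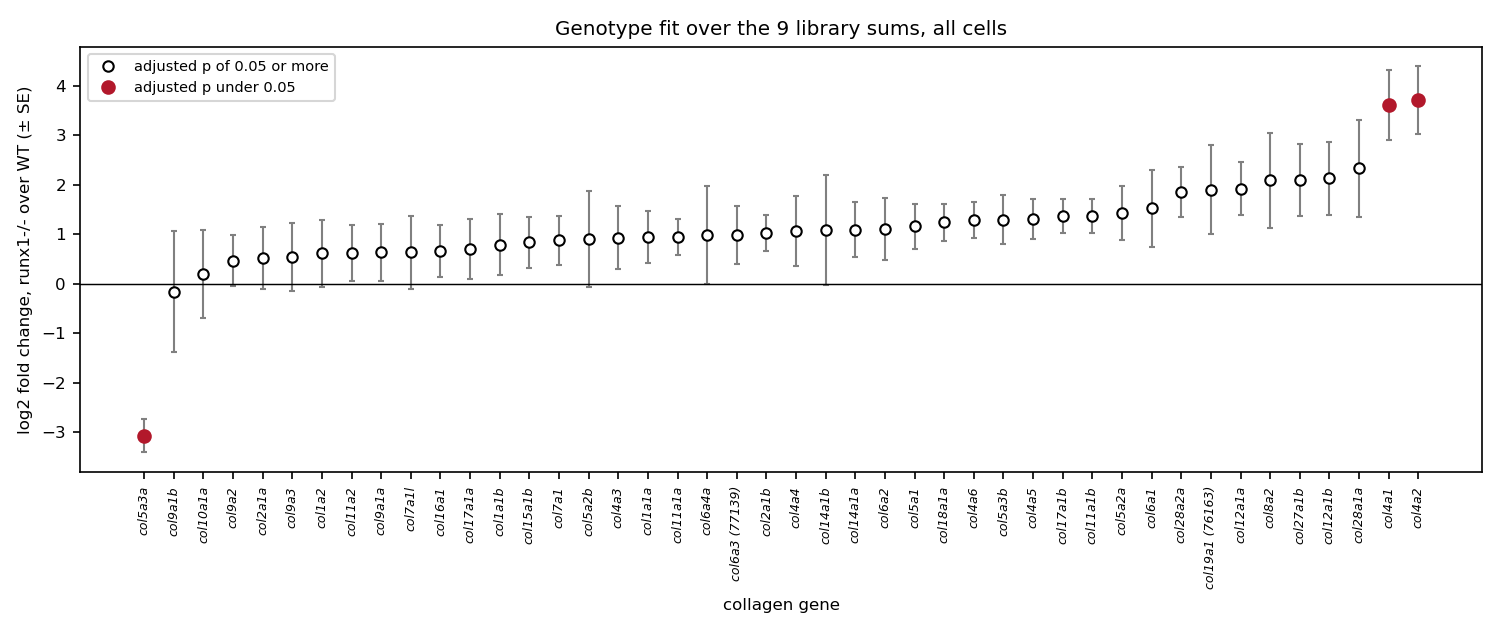
Log2 fold change of runx1-/- over WT (points, with bars of 1 standard error) for the 44 collagens tested over the 9 library sums, in order of size; filled points passed an adjusted p of 0.05. Only col5a3a on the left and col4a1 and col4a2 on the right passed, and most other collagens lie between 0 and 2.

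Age was compared in the same fit, as the mean of 6, 10 and 16 dpf over 2.5 dpf. Of the 44 collagens 32 fell and none rose, against 22.6% of all genes called (7.01% higher and 15.6% lower), and the median log2 fold change of the collagens was -4.34 against 0.04 over all genes. The gene list and the barcode filter also differed between 2.5 dpf, where the smallest barcode held 2907 UMIs, and the later libraries, where it held 500 to 505, so age and these steps cannot be told apart. The mix of sorted cells changed too. Epidermis-like cells made up 30.8% of the runx1-/- and 11.5% of the WT library of 2.5 dpf, then 22.8% and 6.41% by 6 dpf. No cell of 10 dpf had that name, and the largest share of 16 dpf was 0.626%, in bloodless. How far this mix sets the age estimates over all cells was not tested. By list, 10 of 11 cartilage, 4 of 4 basement membrane zone, 2 of 2 transmembrane, 5 of 6 FACIT, 6 of 8 fibrillar and 4 of 6 basement membrane collagens were lower. Examples are col1a1a at -6.58 and col2a1b at -6.38. The type XXVIII gene col28a2a fell by 8.27 on the log2 scale (adjusted p 2.43e-05, edgeR). Of the type VI chains 0 of 4 passed, and the named genes col5a3a at -0.41 (adjusted p 0.486), col4a1 at -1.37 (0.208) and col4a2 at 1.47 (0.238) did not pass either. Within blood clusters 16 of 23 collagens were lower, against 9.66% of genes called (3.45% higher and 6.2% lower).

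The remaining lists largely followed the epidermis-like cells. For col18a1a, a basement membrane zone collagen whose end fragment is known as endostatin, 95% of the 2.5 dpf UMIs were in epidermis-like cells, and its level came to 146 CPM in runx1-/- and 49.3 CPM in WT at 2.5 dpf and 21.5 and 2.28 CPM at 6 dpf. The anchoring fibril gene col7a1 was at 51.6 CPM in runx1-/- and 16.0 CPM in WT at 2.5 dpf. The transmembrane collagen gene col17a1a, a part of the hemidesmosomes that fix basal skin cells, was higher at 6 than at 2.5 dpf in both genotypes. It was at 26.9 CPM in runx1-/- and 11.4 CPM in WT at 2.5 dpf and at 88.4 and 14.5 CPM at 6 dpf, with 97.5% and 99.1% of its UMIs in epidermis-like cells at these ages. Over the later ages together it was still lower than at 2.5 dpf, at -3.56 (adjusted p 0.0023, edgeR). For col28a2a the level came to 154 CPM in runx1-/- and 53.1 CPM in WT at 2.5 dpf, and its UMIs were likewise epidermal (97.6%).

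Away from skin, col8a2, a network-forming type VIII chain, had 80.7% of its 2.5 dpf UMIs in cartilage-like cells, at 4.17 CPM over all cells in runx1-/- and 5.56 CPM in WT. Later it was counted in the runx1-/- libraries instead, at 9.58 CPM in runx1-/- and 0.137 CPM in WT at 6 dpf and 5.46 and 0.106 CPM at 10 dpf. At 10 dpf its highest level was in the HSPC-like cells led by TCERG1L (23.5 CPM in 529 runx1-/- cells), and at 16 dpf a cluster led by the same gene held it at 23.2 CPM in 971 recovered cells. It did not pass in the genotype fit over all cells (2.09, SE 0.96, adjusted p 0.284, edgeR). The FACIT gene col12a1a, whose product bridges fibrils in skin and tendon, was at 91.3 CPM in runx1-/- and 31.5 CPM in WT at 2.5 dpf, and at 4.56 and 0.248 CPM at 10 dpf. Of its 152 UMIs in runx1-/- at 10 dpf 133 were in blood clusters (4.12 CPM, against 0.145 CPM in WT). A part of the type VI UMIs of 16 dpf, but not most of them, lay in skeletal muscle-like cells. In these cells the microfibrillar list was at 553 CPM in bloodless, 135 CPM in recovered and 216 CPM in WT.

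Few genes that make, process or break down collagen passed in the genotype fit, in which 1.37% of all genes were called, so counts of 0 or 1 are near that background. Among 19 tested genes of collagen biosynthesis (hydroxylases, chaperones and export) and 19 of fibril processing and cross-linking, none passed, and none of 12 receptors did. Of 15 laminin, nidogen and other basement membrane partners 1 passed: lamb1a, a laminin chain, was at 10.9 CPM in runx1-/- and 4.64 CPM in WT at 2.5 dpf, 6.65 and 0.467 CPM at 6 dpf, 9.93 and 0.497 CPM at 10 dpf, and 1.68 CPM in bloodless, 1.28 CPM in recovered and 0.280 CPM in WT at 16 dpf. It was higher in 5 of 5 runx1-/- libraries (log2 fold change 2.43, SE 0.47, adjusted p 0.0422, edgeR). Of 10 collagen-degrading enzymes and their inhibitors 2 passed. The lysosomal protease gene ctsk was higher in runx1-/- (2.06, adjusted p 0.0409, edgeR), with 17.9 CPM in runx1-/- and 2.41 CPM in WT at 10 dpf and 44.2 CPM in bloodless, 11.1 CPM in recovered and 4.0 CPM in WT at 16 dpf. The gelatinase gene mmp9, a neutrophil enzyme, was lower (-1.55, adjusted p 0.0341, edgeR), with 10.5 CPM in runx1-/- and 41.9 CPM in WT at 2.5 dpf and 31.3 and 49.6 CPM at 10 dpf. DESeq2 called 8.54% of all genes (5.13% higher and 3.41% lower). With it 4 of the 10 breakdown genes were higher and mmp9 lower. Of the 12 receptors 1 was higher, a count near that background: itga2.3, a collagen-binding integrin chain (2.65, adjusted p 0.00080, DESeq2).

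Genes that make collagen were also lower after 2.5 dpf. Of the biosynthesis genes 16 of 19 were lower, against 15.6% of all genes, among them the collagen chaperone gene serpinh1b (-5.78) and fkbp10b (-4.25). Within blood clusters 2 of 16 biosynthesis genes were lower, where 6.2% of all genes were. Their median log2 fold change was -0.13 there, against -2.17 over all cells. For serpinh1b the level came to 204 CPM in runx1-/- and 146 CPM in WT at 2.5 dpf, and 34.0 and 5.49 CPM at 6 dpf. Of the processing genes 12 of 19 were lower, including the fibril-binding proteoglycan genes dcn (-7.03) and fmoda (-7.50). Of basement membrane partners 7 of 15 were lower, such as agrn (-3.89) and lama5 (-2.80). The collagen receptors did not fall as a list. Of 12 tested, 2 were lower, near the share of all genes, and 1 was higher, the integrin gene itgb1a (1.58). Their median log2 fold change was 0.55. Of 10 breakdown genes 4 were lower and 1 was higher, the collagenase gene mmp13b (6.06).

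The pair of ceramide transfer genes that share the symbol pattern did not move alike. The level of col4a3bpb came to 5.34 CPM in runx1-/- and 2.41 CPM in WT at 2.5 dpf, 14.3 and 4.58 CPM at 6 dpf, and 3.93 and 5.43 CPM at 10 dpf. At 16 dpf it was 2.6 CPM in bloodless, 1.99 CPM in recovered and 4.84 CPM in WT. The age estimate of col4a3bpb was -0.03 (adjusted p 0.977, edgeR), without the fall seen in most collagens. In contrast col4a3bpa was lower after 2.5 dpf, as most collagens were, at -2.04 (adjusted p 0.0221, edgeR). By genotype neither passed, at 0.61 for col4a3bpa (adjusted p 0.527, edgeR) and -0.29 for col4a3bpb (adjusted p 0.753, edgeR).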

How the data were processed

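The 9 libraries were made with a droplet method that reads the 3' end of transcripts, and the authors deposited for each a matrix of UMI counts per gene and cell barcode. Cell Ranger 2.0.2 and GRCz10 are named in the submitters' processing notes; the annotation and the barcode filter are not given in the sources used here. The deposited gene lists hold 26586 genes at 2.5 dpf and 26573 later. Of 30917 barcodes, 29994 had at least 500 UMIs, 200 genes and at most 20% mitochondrial UMIs. Scrublet's automatic threshold called 249 doublets, so the cells with the highest scores were removed instead, in proportion to the size of each library (1119 in all).

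Cells of each age were clustered in scanpy 1.11.5 without collagen genes (2000 variable genes, 30 components, 15 neighbours, Leiden resolution 1 in its igraph version). A cluster took a cell type name from at least 3 markers. No cluster was named endothelial-like, so the planned test in that class gave no value and the one in all other cells equals the one in all cells. Counts were summed per library and tested with edgeR 4.0.16 (R 4.3.3; quasi-likelihood, TMM factors, filterByExpr, threshold 0.05) with age and genotype as factors, so ages served as repeats of the genotype contrast and both 16 dpf mutant libraries counted as runx1-/-. DESeq2 1.42.0 was an alternative. The standard error (SE) given for an edgeR estimate was back-calculated. It is the size of the log2 fold change divided by the square root of the test's F statistic. The edgeR tests were also tried on counts simulated from the means and dispersions of these data, with 200 genes changed. For genotype 60.5% of genes with a log2 change of 2 were recovered, and 99.0% of those with a change of 4. For age the shares were 27.0% and 98.5%, so changes of 2 or less can stay uncalled. Intervals (SciPy 1.17.1) are exact Poisson for CPM, Clopper-Pearson for shares and conditional binomial for ratios. Shares of cells with a UMI that are given as thinned used 2000 UMIs per cell, leaving out shallower cells. All other shares of cells with a UMI are unthinned, so they also depend on depth.

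The genes named are col4a1, col4a2 and col5a3a, the 3 members of each list with the highest mean CPM, every collagen past the threshold, and up to 2 of each partner list past it. Others, such as col9a1a, col10a1a, col10a1b, col27a1b, the genes with an age call only and the leading genes of clusters, were chosen after their values were seen. The members and lists were chosen with earlier results of these data known. A genome or sequences were not used here, and no UMI can be assigned between near-identical paralogs beyond what the authors' counting did.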

Additional observations from a re-analysis of the deposited data

Results flagged for a closer look

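The summed fibrillar collagens differed in direction between ages under the contrast of runx1-/- with WT. The log2 ratio of CPM was 1.52 for 2.5 dpf, 2.78 for 6 dpf, 1.12 for the bloodless library and 0.61 for the recovered library, against -2.12 for 10 dpf. Each ratio rests on 1 library per genotype, and the difference between the ages was not tested. At 10 dpf col5a3a, which was lower in runx1-/- at every age, made up 329 of the 684 fibrillar UMIs in WT over every deposited barcode.

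For the cartilage collagens the 16 dpf recovered library went against the others. Its log2 ratio to WT was -0.22, against 0.95 at 2.5 dpf, 2.89 at 6 dpf, 2.69 at 10 dpf and 1.1 in the bloodless library. This difference was not tested either. The col2a1a and col10a1b UMIs of runx1-/- at 10 dpf, which came from 6 cells and 1 cell, belong to this sum.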

How the results depend on the processing

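No paired analysis was possible because the labels give no replicate numbers and each group is 1 library; age was already a factor of the fits and sets runx1-/- against WT within each age. The count of 3 collagens called between runx1-/- and WT over all cells, and the identical count for cells other than endothelial-like, moved with most settings. It was 13 with DESeq2 (12 higher, 1 lower), 5 with library totals in place of TMM factors (a scaling that moved the median log2 fold change of all genes to 0.54), 1 without doublet removal and, for all cells, 1 over every deposited barcode. Without the age term edgeR called 0 collagens, with 3 at an unadjusted p under 0.05 and 1505 of 15582 genes at that level. Leaving out libraries or ages gave 1 to 3. Without cells that had UMIs of 2 or more endothelial markers 2 collagens passed: col4a2 (3.24, adjusted p 0.0354, edgeR) and col5a3a (-3.10, adjusted p 0.0069), while col4a1 (3.12) had an adjusted p of 0.0514. That rule gave no test of endothelial cells, since the WT libraries of 2.5, 6 and 10 dpf held 4, 1 and 2 such cells. In blood clusters the genotype count was 5 and the age count 16; in the other age fits over all cells the age count was 29 to 34.

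Shares of UMIs followed the definition of a class. At 2.5 dpf the cartilage share in cartilage-like cells was 39.1% at Leiden resolution 0.5, 34.05% at 2, 30.8% without doublet removal and 58.35% when cells were taken by 2 markers without clustering. For the fibrillar share in fibroblast-like cells these settings gave 0, 2.63%, 2.81% and 95.6%, and by 2 markers endothelial cells held 26.9% of later basement membrane UMIs, against 0 by clusters. Directions turned in blood clusters for col16a1 by genotype (-2.74) and for col16a1 (0.14), col5a3a (0.56) and col8a2 (0.24) by age. The genotype estimate of col2a1a was -0.072 without the age term and -0.26 (without 10 dpf) to 1.08 (without 16 dpf) in leave-outs. The age estimate of col5a3a ran from -1.09 (without 6 dpf) to 0.36 (without 16 dpf), and was 0.30 without the runx1-/- library of 2.5 dpf. The cause was not tested in any of these cases. Of 338 genotype estimates of named genes under alternatives 306 kept direction and call, and of 339 age estimates 328 did. Most named genes were not called by genotype, so for them keeping the call meant staying uncalled. Of the called genes, col4a1 passed in 5 of 14 alternatives, col4a2 in 6 and col5a3a in 13. Counts of a few UMIs, as for col4a3, col4a4 and col4a2 in WT, limit those values most.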
